A study of Mus musculus with 12 samples.

Results

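Parm1, Prr15, Ahsg and Ccdc3, genes with little literature in lymphatic biology, were examined in sorted endothelium of the mouse ear. The 4 genes were picked from 30743 genes with a row on the array because their levels were high in collecting lymphatic endothelium. Each had 1 transcript cluster that named it and no other gene: TC0500000860.mm.1 for Parm1, TC0600000650.mm.1 for Prr15, TC1600000323.mm.1 for Ahsg and TC0200000048.mm.1 for Ccdc3. All 4 were among the 19675 genes that passed the filter on dim genes, which asks for a value above the median of all rows of the array on at least 3 of the 12 arrays.

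All cells came from C57BL6 mice that carried the Prox1-GFP reporter transgene Tg(Prox1-EGFP)KY221Gsat, and no group lacked it. The age is given both as adult and as 5 weeks. Cells were enriched with beads against PECAM1 and sorted into collecting vessel cells (col LEC, low or no LYVE1), pre-collecting vessel cells (pre-col LEC, intermediate LYVE1) and capillary cells (cap LEC, high LYVE1), all positive for podoplanin and the reporter, and blood endothelial cells (BEC), negative for both and for LYVE1. Arrays numbered 3 per group, with the label of biological replicates, and 500 pg of RNA per sample was amplified. The vessel type was therefore assigned by a surface gate and not by position in the tissue, and whether a replicate was 1 mouse or a pool is not given in the sources used here.

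Lymph enters blind-ended capillaries, passes through pre-collecting segments and is moved on by collecting vessels, which have valves and, over much of their length, a coat of contractile muscle cells. Collecting endothelium carries little LYVE1, and its molecular make-up is less well described than that of capillaries. Parm1 encodes a mucin-like membrane protein with a heavily glycosylated outer region, first described as an androgen-regulated gene of the rat prostate. Prr15 encodes a small proline-rich protein known from trophoblast and gut epithelium. Ahsg encodes fetuin-A, a plasma glycoprotein of the cystatin superfamily that is made mainly by the liver and keeps calcium phosphate from precipitating. Ccdc3 encodes a secreted protein, also called favine, that is made by fat cells and endothelium.

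The start-site regions of the 4 genes are shown so that genes that share a high level in col LEC can be compared at their start sites. They are RefSeq sequences of 300 bases (250 before and 50 after the annotated start), written 5′ to 3′, and all 4 genes had an entry in the table. Their positions in build GRCm38.p6, all on the plus strand, are chr5:91517450-91517749 for Parm1, chr6:54326651-54326950 for Prr15, chr16:22891765-22892064 for Ahsg and chr2:5137526-5137825 for Ccdc3. Capitals mark each match, on either strand, to 7 short motifs. Common promoter elements were the TATA box, searched with the letters TATAAA, the site known as the CCAAT box, searched by its name letters, and the GC box of Sp1-type factors, searched as GGGCGG on both strands. Factors with known roles in lymphatic valves were covered by a forkhead motif, searched with the letters TGTTTAC, by a motif of the GATA family, spelled AGATAA in this search, and by the core of the NFAT site, for which the letters were GGAAA on either strand. The last motif was an E-box that reads the same on both strands, CAGCTG. No 2 marked matches overlapped.
Parm1: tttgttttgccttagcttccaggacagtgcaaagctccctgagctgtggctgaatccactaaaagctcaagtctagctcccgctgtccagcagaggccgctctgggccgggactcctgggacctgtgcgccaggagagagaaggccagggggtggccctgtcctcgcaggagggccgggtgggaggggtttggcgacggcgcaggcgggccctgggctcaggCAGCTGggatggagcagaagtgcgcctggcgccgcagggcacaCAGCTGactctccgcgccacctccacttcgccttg
Prr15: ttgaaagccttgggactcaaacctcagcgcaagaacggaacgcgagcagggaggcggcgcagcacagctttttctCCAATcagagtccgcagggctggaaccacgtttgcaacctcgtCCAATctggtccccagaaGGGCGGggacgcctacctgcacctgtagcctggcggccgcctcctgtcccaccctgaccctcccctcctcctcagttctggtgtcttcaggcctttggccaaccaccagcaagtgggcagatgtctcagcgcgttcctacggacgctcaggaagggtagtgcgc
Ahsg: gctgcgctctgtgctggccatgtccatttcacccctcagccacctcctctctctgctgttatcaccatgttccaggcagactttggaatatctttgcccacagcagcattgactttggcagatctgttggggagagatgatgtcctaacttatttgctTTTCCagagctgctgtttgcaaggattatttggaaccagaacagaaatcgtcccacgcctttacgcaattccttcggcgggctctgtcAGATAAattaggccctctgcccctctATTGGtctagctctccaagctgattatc
Ccdc3: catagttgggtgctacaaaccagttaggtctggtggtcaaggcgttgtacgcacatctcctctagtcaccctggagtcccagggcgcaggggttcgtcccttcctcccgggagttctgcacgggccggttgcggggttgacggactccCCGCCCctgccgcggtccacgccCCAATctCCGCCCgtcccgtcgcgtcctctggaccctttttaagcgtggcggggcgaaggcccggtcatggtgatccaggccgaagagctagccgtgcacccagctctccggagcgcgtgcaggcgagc
The Parm1 region held 2 matches to the E-box, a motif present in 16.3% of the 32851 promoter regions of the table, and no match to the other 6. Prr15 held 2 CCAAT boxes and 1 GC box, and Ccdc3 held 1 CCAAT box and 2 GC boxes, elements present in 37.4% (CCAAT box) and 35.7% (GC box) of all regions. Ahsg held 1 match each to the CCAAT box, the GATA motif (11.2% of all regions) and the NFAT core (61.3%). Its CCAAT match lay after the annotated start and on the minus strand, while those of Prr15 and Ccdc3 lay before the start on the plus strand. Prr15 and Ccdc3 thus held the same elements, no motif was present in all 4 regions, and neither the TATA box (13.6% of all regions) nor the forkhead motif (3.65%) was present in any of them. The number of CG dinucleotides was 16 in Parm1, 18 in Prr15, 6 in Ahsg and 28 in Ccdc3, against a median of 7 over all regions. These matches describe letters and are not evidence that a factor binds.

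The sorted populations differed in Lyve1 and Prox1 as their gates did. Lyve1 averaged 10.44 in col LEC, 12.64 in pre-col LEC, 13.08 in cap LEC and 6.84 in BEC on the log2 scale, and Prox1, the transcription factor of lymphatic identity, averaged 12.55, 12.51, 12.53 and 6.93 in the same order of groups. The median RMA value of an array was 6.06 to 6.17. Cells were gated on LYVE1 and Prox1 was level over the LEC groups, so neither marks col LEC separately. Of 17 listed collecting and valve genes, 13 had a higher mean in col LEC than in cap LEC. The median difference was 0.29, against 0.026 over all genes tested, and the share of all genes above 0 was not counted. Differences ran from -0.17 (Gja4) to 2.10 (Adamts1), with Nfatc1 at -0.070 and Itga9 at -0.11. Markers of mural cells, the pericytes and smooth muscle cells around vessels, were not spread evenly: the mean log2 level of 12 mural genes was 6.99 to 7.05 on col LEC arrays, 7.18 to 8.11 on pre-col LEC arrays, 6.92 to 7.42 on cap LEC arrays and 8.99 to 9.23 on BEC arrays. Pre-col LEC replicate 1 stood apart: Acta2, smooth muscle actin, was at 10.21 there, and at most 8.0 on the other pre-col LEC arrays. Fibroblast RNA was uneven too: the mean log2 level of 9 fibroblast genes was 6.97 to 7.72 on col LEC arrays, 7.22 to 8.45 on pre-col LEC arrays, 6.99 to 7.38 on cap LEC arrays and 7.49 to 7.71 on BEC arrays, with replicate 1 highest in both col LEC and pre-col LEC. The matrix gene Dcn (decorin) was at 9.54 on col LEC replicate 1, against 6.05 and 6.65 on the other col LEC arrays, and at 10.38 on pre-col LEC replicate 1, against 6.50 and 7.58 on the other pre-col LEC arrays. In these bulk samples, more cells that express a gene and more RNA per cell cannot be told apart.

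Parm1 was high in col LEC, low in cap LEC, and at overlapping levels in between in pre-col LEC and BEC. Its log2 level was 9.91, 10.14 and 9.89 on the 3 col LEC arrays, 8.63, 8.47 and 8.50 on pre-col LEC arrays, 7.92, 7.94 and 7.88 on cap LEC arrays and 8.43, 8.74 and 8.53 on BEC arrays. The col LEC arrays lay above all others, the cap LEC arrays below all others, and the ranges of pre-col LEC and BEC overlapped. Group means were 9.98 ± 0.14 in col LEC, 8.53 ± 0.08 in pre-col LEC, 7.91 ± 0.03 in cap LEC and 8.57 ± 0.16 in BEC (SD, n = 3 arrays each). Col LEC thus exceeded pre-col LEC by 1.45, cap LEC by 2.07 and BEC by 1.41 on the log2 scale, which is 2.72-fold, 4.19-fold and 2.66-fold. These 3 differences use the arrays on which the gene was picked and carry no test.

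Prr15 formed a staircase over the 4 groups. Its log2 level was 9.12, 9.16 and 9.39 on col LEC arrays, 8.27, 8.51 and 8.65 on pre-col LEC arrays, 7.58, 7.85 and 7.81 on cap LEC arrays and 6.81, 7.01 and 7.09 on BEC arrays. No group overlapped its neighbour in the order, and each step exceeded the larger SD of the 2 groups beside it. The means were 9.22 ± 0.14 in col LEC, 8.48 ± 0.20 in pre-col LEC, 7.75 ± 0.14 in cap LEC and 6.97 ± 0.14 in BEC (SD, n = 3 arrays each). The steps were 0.75 from col LEC over pre-col LEC, 0.73 from pre-col LEC over cap LEC and 0.78 from cap LEC over BEC on the log2 scale.

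Ahsg was raised in col LEC and lay at one low level in the other 3 groups. Its log2 level was 8.57, 8.21 and 8.10 on col LEC arrays, 6.97, 6.80 and 7.12 on pre-col LEC arrays, 6.95, 6.85 and 6.46 on cap LEC arrays and 6.64, 6.71 and 6.95 on BEC arrays. The col LEC arrays lay above all others by at least 0.98, and pre-col LEC, cap LEC and BEC overlapped. The means were 8.29 ± 0.25 in col LEC, 6.96 ± 0.16 in pre-col LEC, 6.75 ± 0.26 in cap LEC and 6.77 ± 0.17 in BEC (SD, n = 3 arrays each), so that col LEC stood 2.51-fold, 2.90-fold and 2.88-fold above pre-col LEC, cap LEC and BEC. The values outside col LEC were as little as 0.39 above the median of all rows of the array, where fold changes of weak signals are compressed. Col LEC replicate 1, the col LEC array with the most fibroblast RNA, was the highest for Ahsg, and without it the col LEC mean was 8.15. The part of fibroblast RNA in the Ahsg level was not tested.

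Ccdc3 followed the same staircase as Prr15, with a wider spread at its foot. Its log2 level was 11.53, 11.61 and 11.52 on col LEC arrays, 10.49, 10.93 and 10.80 on pre-col LEC arrays, 9.63, 10.16 and 9.82 on cap LEC arrays and 8.17, 9.14 and 9.10 on BEC arrays. The groups did not overlap, and BEC replicate 1 was the lowest array. The means were 11.55 ± 0.05 in col LEC, 10.74 ± 0.23 in pre-col LEC, 9.87 ± 0.27 in cap LEC and 8.80 ± 0.55 in BEC (SD, n = 3 arrays each). Col LEC exceeded pre-col LEC by 0.82, cap LEC by 1.69 and BEC by 2.75 on the log2 scale, which is 1.76-fold, 3.22-fold and 6.74-fold.

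**Figure D1:**
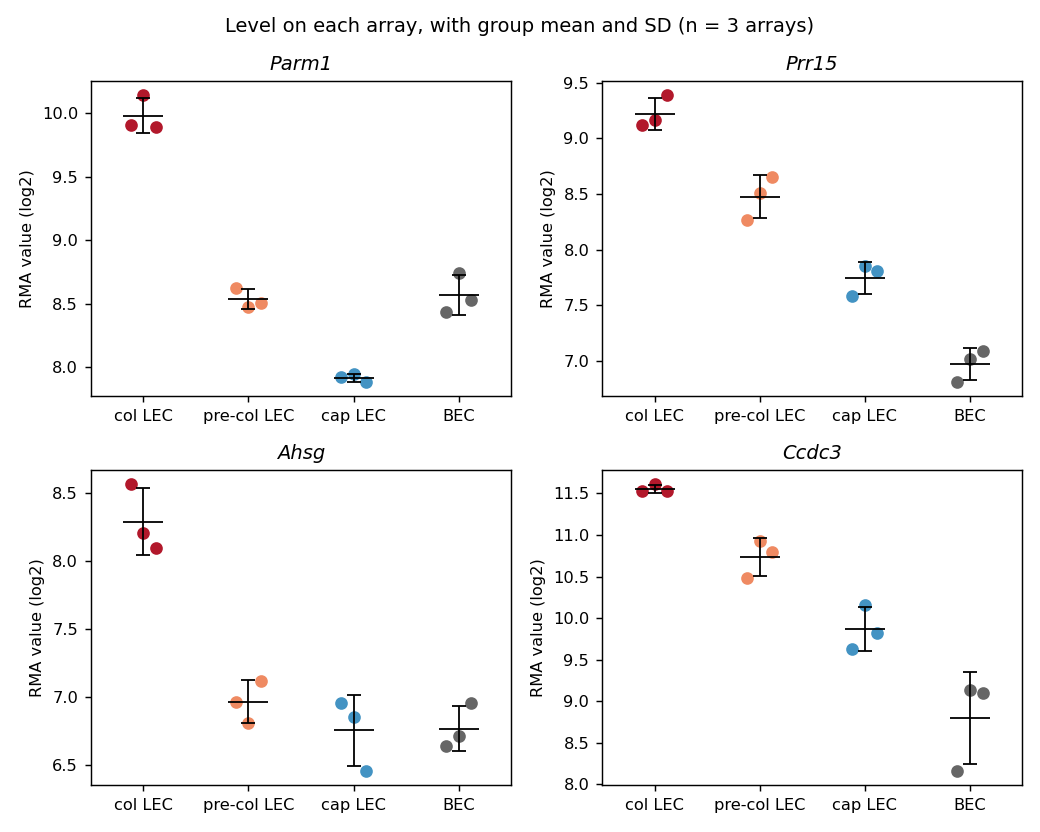
RMA values (log2) of Parm1, Prr15, Ahsg and Ccdc3 on each array (points) in col LEC, pre-col LEC, cap LEC and BEC, with the group mean and SD (bars, n = 3 arrays); each panel has its own axis range, which does not start at 0. Prr15 and Ccdc3 step down over the 4 groups, Parm1 is lowest in cap LEC, and Ahsg is raised in col LEC above 3 overlapping groups.

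All 3 col LEC arrays lay above all 9 other arrays for each of the 4 genes, a pattern shown by 1.29% of the genes tested, and one that the choice of the genes fixes. The platform's negative control rows had a wide spread, with a 95th percentile of 8.92 to 9.34 per array. Ccdc3 exceeded that percentile on all 3 arrays of each LEC group and on 2 BEC arrays, Parm1 on the 3 col LEC arrays alone, Prr15 on 2 col LEC arrays and Ahsg on none. No detection call was used here, and these levels show only where a row lay against the controls.

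Where pre-collecting cells stood between capillary and collecting cells differed from gene to gene. With cap LEC at 0% and col LEC at 100% of the log2 difference between their means, the mean of pre-col LEC lay at 30.0% for Parm1, 49.4% for Prr15, 13.6% for Ahsg and 51.6% for Ccdc3. Over the single pre-col LEC arrays the position ranged from 27.0% to 34.4% for Parm1, from 35.1% to 61.3% for Prr15, from 3.3% to 23.8% for Ahsg and from 36.7% to 63.1% for Ccdc3. The ranges of Prr15 and Ccdc3 overlapped each other and lay above those of Parm1 and Ahsg, which did not overlap. These positions use the col LEC arrays and are a description.

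The comparison of pre-col LEC with cap LEC leaves out the col LEC arrays, and asks whether the genes already differ between the first segments of the lymphatic tree. All 4 genes had higher means in pre-col LEC, and none passed limma's test. The log2 difference was 0.62 ± 0.10 for Parm1 (SE, adjusted p = 0.0846), 0.73 ± 0.12 for Prr15 (adjusted p = 0.0926), 0.21 ± 0.16 for Ahsg (adjusted p = 0.841) and 0.87 ± 0.23 for Ccdc3 (adjusted p = 0.520), with n = 3 arrays per group. The 95% intervals were 0.41 to 0.83 for Parm1, 0.46 to 1.00 for Prr15, -0.13 to 0.55 for Ahsg and 0.37 to 1.37 for Ccdc3. The test called 0 of 19675 genes in this comparison (0%), while 1257 genes (6.39%) had an unadjusted p under 0.05, and the unadjusted p was 4.30e-05 for Parm1, 7.79e-05 for Prr15, 0.206 for Ahsg and 0.00274 for Ccdc3. The 3 pre-col LEC arrays lay above the 3 cap LEC arrays for Parm1, Prr15 and Ccdc3, which holds for 6.25% of the genes tested (7.96% had all pre-col LEC arrays below). The cap LEC arrays also served in the contrasts that set col LEC apart, so this comparison is not fully independent of the choice of the genes.

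The Parm1 and Prr15 values lay near the threshold, and each passed it in 2 of 19 other limma fits. Over those fits the adjusted p reached 0.389 for Parm1 and 0.393 for Prr15. With array weights the adjusted p was 0.0259 for Parm1 (0.59) and 0.0241 for Prr15 (0.76), and after cyclic loess it was 0.0446 for Parm1 (0.67). Pre-col LEC replicate 1, which had the highest Acta2 and Rgs5 (a pericyte gene) of the LEC arrays, both at 10.21, was the highest pre-col LEC array for Parm1 and the lowest for Prr15 and Ccdc3. Without it the log2 difference was 0.57 for Parm1, 0.83 for Prr15 and 1.00 for Ccdc3, and none of the 3 passed the test.

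Lymphatic cells were then set against blood endothelium, first with pre-col LEC. Prr15 and Ccdc3 rose in pre-col LEC: Prr15 was 2.84-fold higher (log2 difference 1.51 ± 0.12, SE, adjusted p = 2.58e-06) and Ccdc3 3.83-fold higher (1.94 ± 0.23, adjusted p = 6.93e-05), each higher on 3 of 3 arrays than on any BEC array, as for 13% of the genes tested. Parm1 differed by -0.033 ± 0.10 (adjusted p = 0.869, 95% interval -0.25 to 0.18) and Ahsg by 0.20 ± 0.16 (adjusted p = 0.481, 95% interval -0.14 to 0.54). So 2 of the 4 genes were called, both higher, where 15.5% of all genes tested were called 7.38% higher and 8.15% lower, and 25.9% had an unadjusted p under 0.05.

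In cap LEC against BEC, Prr15 and Ccdc3 rose and Parm1 fell. Prr15 was 1.71-fold higher in cap LEC (log2 difference 0.78 ± 0.12, SE, adjusted p = 0.000634) and Ccdc3 2.09-fold higher (1.07 ± 0.23, adjusted p = 0.00562). Parm1 fell by 0.65 on the log2 scale in cap LEC (SE 0.10, adjusted p = 0.000415), and all 3 cap LEC arrays lay below all 3 BEC arrays, as for 19.6% of the genes tested. Ahsg differed by -0.012 ± 0.16 (adjusted p = 0.964, 95% interval -0.35 to 0.33). The count was 3 of 4 genes called, 2 higher and 1 lower, against 20.7% of all genes tested, 11.2% higher and 9.55% lower, while 34.6% had an unadjusted p under 0.05. Both comparisons use the same BEC arrays. These BEC arrays also served in the contrasts that set col LEC apart. Neither comparison, nor its count of calls, is therefore fully independent of the choice of the genes.

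BEC arrays also carried mural RNA. Of 12 mural genes, 10 fell in cap LEC against BEC (median -1.86, against -0.026 over all genes), where 9.55% of all genes tested fell. In pre-col LEC against BEC 9 of them fell (median -1.64, against -0.017 over all genes), where 8.15% of all genes tested fell. The part of mural RNA in the Parm1 and Ccdc3 differences was not tested. Some lymphatic genes were highest on BEC replicate 1 among the BEC arrays. Mmrn1 was at 9.84 there, against 6.55 and 6.52 on the others, and Reln at 7.81, against 6.31 and 6.54. Prox1 was at 7.55, against 6.70 and 6.55, and Lyve1 at 7.30, against 6.65 and 6.57. Pdpn was also highest there, while Flt4, Sox18 and Nrp2 were not. The part of lymphatic RNA in the BEC levels was not tested. Without BEC replicate 1, the lowest array for Ccdc3, the cap LEC minus BEC difference of Ccdc3 was 0.75 and stayed called (adjusted p = 0.00622).

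**Figure D2:**
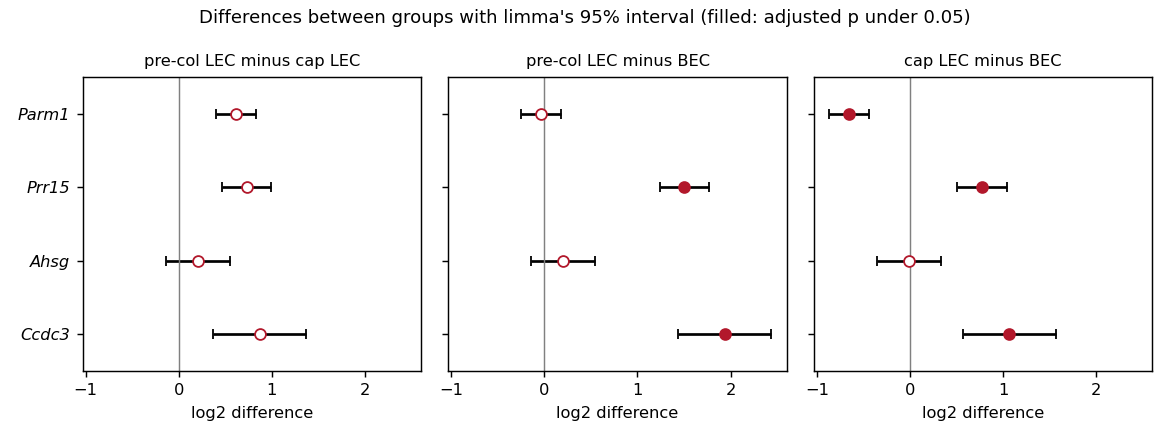
Log2 differences of the 4 genes (x axis) between pre-col LEC and cap LEC, pre-col LEC and BEC, and cap LEC and BEC, with limma's 95% interval; filled points have an adjusted p under 0.05. Prr15 and Ccdc3 lie above 0 against BEC in both comparisons, Parm1 lies below 0 in cap LEC minus BEC, and Ahsg is near 0 throughout.

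The 4 genes fell into 2 pairs by their profile over the 12 arrays. Likeness was measured as the root mean square difference between genes after each was centred on its own mean, in log2 units. Prr15 and Ccdc3 differed by 0.28 and Parm1 and Ahsg by 0.31, while the 4 pairs across these differed by 0.52 to 0.80. Over the 9 LEC arrays alone Prr15 and Ccdc3 were again closest, at 0.16, and the other 5 pairs lay between 0.30 and 0.39, so that the separation of Parm1 from Prr15 and Ccdc3 rested largely on BEC.

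Genes with the most similar profile were named by the same measure over 12 arrays, which share the 4 groups and include the col LEC arrays. For Prr15 they were Cldn11, a tight junction claudin (0.19), Neo1, the netrin receptor neogenin (0.23), Ccdc3 (0.28), Met, the receptor for hepatocyte growth factor (0.29), and Slc41a1, a magnesium transporter (0.29). Cldn11 averaged 10.80 in col LEC, 10.08 in pre-col LEC, 9.21 in cap LEC and 8.48 in BEC. Its differences from BEC were 1.60 ± 0.14 in pre-col LEC (SE, adjusted p = 3.45e-06) and 0.74 ± 0.14 in cap LEC (adjusted p = 0.00195). Their closeness to those of Prr15 follows from the choice by profile, which used the BEC arrays. Ccdc3 had Prr15 (0.28), Cldn11 (0.30), Pdlim3, an actin-associated PDZ and LIM protein (0.34), Neo1 (0.39) and Met (0.39) nearest.

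For Parm1 the nearest genes were the protocadherin Pcdh7 (0.25), Adm, which encodes adrenomedullin (0.27), Ahsg (0.31), the lipoprotein receptor gene Lsr (0.32) and Odc1, the first enzyme of polyamine synthesis (0.33). Odc1 averaged 10.82 in col LEC, 10.11 in pre-col LEC, 9.29 in cap LEC and 10.04 in BEC, and fell by 0.76 in cap LEC against BEC (SE 0.14, adjusted p = 0.00204). Its low value in cap LEC, shared with Parm1, is part of the profile by which it was named. For Ahsg they were Pcdh7 (0.21), Itih2, a heavy chain of inter-alpha-trypsin inhibitor (0.26), the transcription factor gene Gata6 (0.29), Adm (0.30) and Parm1 (0.31). Itih2 averaged 8.48 in col LEC, 7.29 in pre-col LEC, 6.98 in cap LEC and 6.65 in BEC, and rose in pre-col LEC against BEC (0.64 ± 0.13, adjusted p = 0.00381), where Ahsg was not called. Over the 9 LEC arrays alone 2 of the 5 nearest genes were the same for Parm1, 2 for Prr15, 3 for Ahsg and 2 for Ccdc3. In that setting Odc1 was nearest to both Prr15 (0.075) and Ccdc3 (0.15).

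**Figure D3:**
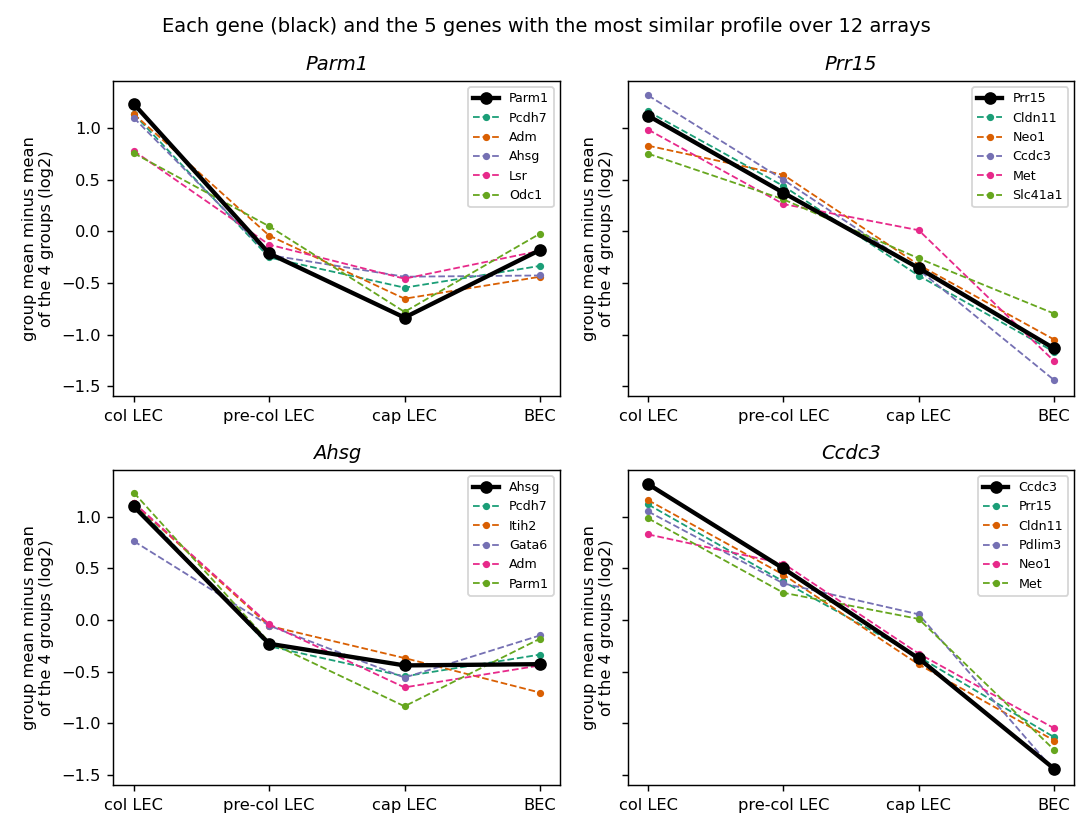
Group means minus the mean of the 4 groups (log2) for each gene (black) and the 5 genes with the smallest root mean square difference over 12 arrays (dashed). The genes around Prr15 and Ccdc3 step down to BEC, while most of those around Parm1 and Ahsg have their lowest value in cap LEC.

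Most relatives of each gene by sequence family or known function lay near 0 in col LEC minus cap LEC, with Itih2, Itih3 and Fabp4 as the widest exceptions. Beside Parm1, 13 other genes of the membrane sialomucin list passed the filter. The list also held Mcam, an adhesion molecule of the immunoglobulin family and not a sialomucin. Their col LEC minus cap LEC differences ran from -0.25 to 0.28 with a median of 0.038, against 2.07 for Parm1. Some rows, such as Muc4 at 6.33 and Muc20 at 6.59 in col LEC, lay near the array median, where a flat row shows little. The lymphatic sialomucin gene Pdpn, on which cells were sorted, averaged 11.89 in col LEC and 12.15 in cap LEC, and the endothelial sialomucin gene Emcn 11.27 in col LEC and 10.98 in cap LEC. Against BEC, 1 of the 14 tested genes of this list rose and 6 fell in cap LEC (median -0.24, where 11.2% of all genes tested rose and 9.55% fell). Parm1 was among those that fell, with Cd34 (-4.36 ± 0.27, adjusted p = 2.04e-07), Mcam (-1.45) and Podxl (-0.53). Prr15l, the one paralog listed for Prr15, averaged 6.70 in col LEC, 6.62 in pre-col LEC, 6.55 in cap LEC and 6.72 in BEC, with SDs of 0.03 to 0.23, and was not called in any of the 3 tested comparisons (adjusted p = 0.294 to 0.902).

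Ahsg lies beside related genes on mouse chromosome 16: in the RefSeq gene order Fetub, Hrg and Kng2 are the next 3 protein-coding genes. Fetub, Hrg, Kng1 and Kng2 all failed the filter on dim genes. Their group means lay between 4.34 and 4.97 in all 4 groups, below the array median, and Fetub, which encodes fetuin-B, averaged 4.91 in col LEC, 4.82 in pre-col LEC, 4.86 in cap LEC and 4.97 in BEC. Of 4 tested cystatin genes the col LEC minus cap LEC differences were -0.12 to 0.042. Against BEC, Cstb and Cst6 rose in both cap LEC (0.66 ± 0.13 and 0.57 ± 0.11) and pre-col LEC (0.73 ± 0.13 and 0.48 ± 0.11), and Cst3 fell in both (-0.31 ± 0.07 and -0.36 ± 0.07), with adjusted p = 0.00142 to 0.0104.

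Genes for other plasma proteins made by the liver were mostly flat, many of them near the array median. Of 19 with a row, 13 passed the filter, and albumin (Alb), the fibrinogen chains Fga, Fgb and Fgg, Serpinc1 and F2 did not. The 13 tested genes had a median col LEC minus cap LEC difference of 0.079, with Itih3 lowest and Itih2 highest. In col LEC and cap LEC, Ttr averaged 6.17 and 6.09, Hpx 6.52 and 6.42, and Itih1 6.26 and 6.21. A flat row at such a level cannot show whether the gene is expressed. Itih2 was at 8.80, 8.41 and 8.23 on col LEC arrays, against 6.85, 7.03 and 7.06 on cap LEC arrays, and Itih3, another heavy chain of the same complex, was at 7.66, 7.35 and 7.15 on col LEC arrays, against 9.20, 9.09 and 8.87 on cap LEC arrays. The heavy chains thus differed in opposite directions, with no overlap between the groups in either case. In cap LEC against BEC, Itih3 (2.17 ± 0.17, adjusted p = 1.42e-06) and Apoa2 (0.57 ± 0.12, adjusted p = 0.00384) rose and the adhesion protein gene Vtn fell (-1.56 ± 0.19, adjusted p = 7.24e-05).

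Of the other genes listed around the inhibition of mineralisation, not all of them inhibitors themselves, 5 passed the filter, with col LEC minus cap LEC differences of -0.045 to 0.18. Mgp, which encodes matrix Gla protein, averaged 6.65 in col LEC, 6.95 in pre-col LEC, 6.46 in cap LEC and 10.42 in BEC, and fell by 3.95 in cap LEC against BEC (SE 0.26, adjusted p = 3.65e-07). Nt5e, the ectonucleotidase CD73, fell by 1.45 in the same comparison (SE 0.17, adjusted p = 5.75e-05). On these arrays Mgp was thus high in BEC, where Ahsg was at its low level. Within pre-col LEC, Mgp was at 7.64 on replicate 1, the LEC array with the highest Acta2, and at 6.45 and 6.76 on the others. The part of mural RNA in the Mgp level was not tested.

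Fat cell genes did not follow Ccdc3 as a group. Adiponectin (Adipoq), leptin (Lep) and resistin (Retn) failed the filter, with group means of 4.85 to 6.22. The 7 tested adipocyte markers other than Ccdc3 had a median col LEC minus cap LEC difference of 0.18, and the highest, 1.98, belonged to Fabp4, a fatty acid carrier that blood endothelium also makes. Fabp4 averaged 8.57 in col LEC, 7.63 in pre-col LEC, 6.59 in cap LEC and 11.50 in BEC, so that it fell in cap LEC against BEC (-4.92 ± 0.49, adjusted p = 1.48e-05) where Ccdc3 rose. Its cap LEC arrays spread widely, at 7.88, 6.09 and 5.79. Lpl, lipoprotein lipase, also fell in cap LEC against BEC (-1.43 ± 0.12) and the lipid droplet gene Plin4 rose (0.52 ± 0.11). Among the LEC groups Lpl had the same order as Ccdc3, with means of 7.59 in col LEC, 7.36 in pre-col LEC and 7.09 in cap LEC.

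CCDC3 has been described in human endothelial cells as a brake on NF-kB signalling, and Parm1 in rat heart muscle cells as a gene of the endoplasmic reticulum stress response, and lists for both pathways and for WNT targets were described as well. The NF-kB response list had 0 of 11 genes higher and 8 lower in cap LEC against BEC (median -0.54, where 11.2% of all genes tested rose and 9.55% fell) and 0 higher and 7 lower in pre-col LEC against BEC (median -0.50, where 7.38% rose and 8.15% fell), led by E-selectin (Sele, -5.90 ± 0.32 and -5.60 ± 0.32) and Vcam1 (-2.38 ± 0.26 and -2.27 ± 0.26). Ccdc3 rose in both of these comparisons, and a link between its level and those of the NF-kB response genes was not tested. In col LEC minus cap LEC, where Ccdc3 was 1.69 higher, 10 of the 11 NF-kB response genes also had a difference above 0. Their median was 0.18, against 0.026 over all genes tested, and the share of all genes above 0 was not counted. The highest value, 1.16, belonged to Sele. Sele was at 7.52, 5.92 and 6.34 on col LEC arrays and at 5.30 to 5.55 on cap LEC arrays, which is below the array median. Of 11 endoplasmic reticulum stress genes, 1 rose (Trib3, 0.64 ± 0.09) and 3 fell in cap LEC against BEC (Herpud1, -0.47 ± 0.12; Ern1, -0.44 ± 0.11; Xbp1, -0.36 ± 0.09), with a median of -0.10. Of 7 tested WNT target genes, Nkd1 rose in cap LEC against BEC (1.15 ± 0.14) and Dkk2 (-0.90 ± 0.20) and Lef1 (-0.38 ± 0.12) fell. In pre-col LEC against cap LEC no gene of these lists was called, as no gene was over all.

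**Figure D4:**
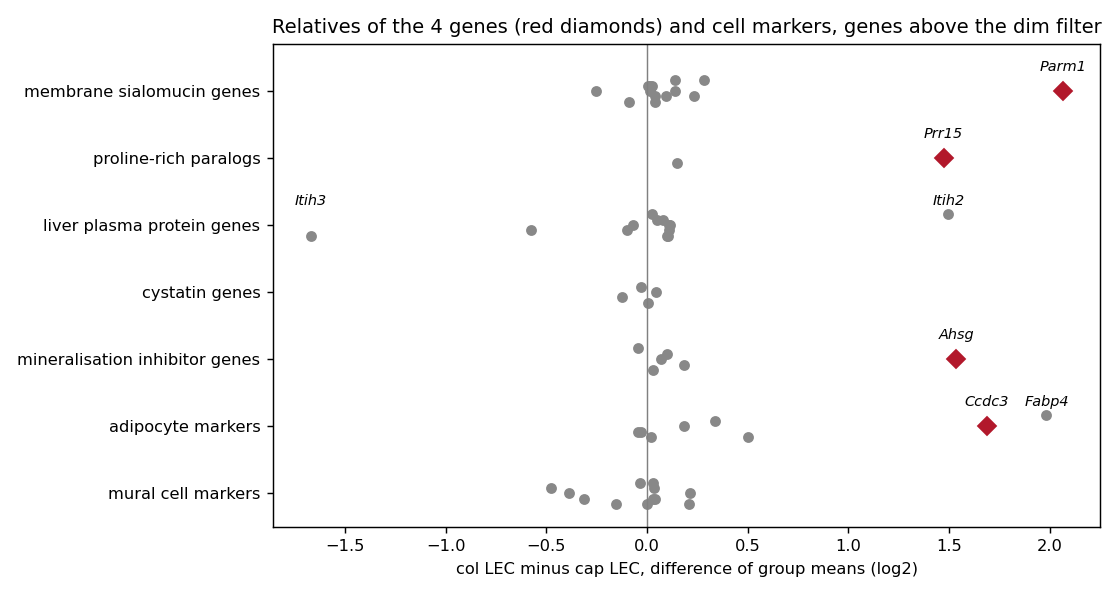
Differences of group means, col LEC minus cap LEC (log2), for tested genes of 7 lists, with the 4 genes as red diamonds and other list members as grey points. The other genes of the sialomucin list span -0.25 to 0.28, and the grey points furthest from 0 are Itih3 on the left and Itih2 and Fabp4 on the right.

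The measured values of neighbouring genes on the chromosome did not share the rise in col LEC, though some lay near the array median. The 3 nearest tested genes on either side of each of the 4 genes, 24 in all, had col LEC minus cap LEC differences of -0.36 to 0.25 with a median of 0.030. Btc and Ereg, which encode ligands of the EGF receptor family, lie before Parm1 and differed by 0.056 and 0.062. Their group means were only 6.21 to 6.35 and 6.39 to 6.56, and those of Mcm10 (6.20 to 6.26) and Scrn1 (6.11 to 6.26) were as low. A flat row at such a level shows little. Several of the 24 were predicted genes. Beside Prr15, Wipf3, a regulator of actin assembly, shared the rise in cap LEC against BEC (1.95, adjusted p = 8.47e-09) and in pre-col LEC against BEC (1.93, adjusted p = 9.83e-09), but its means of 8.92 in col LEC, 9.18 in pre-col LEC and 9.19 in cap LEC were lowest in col LEC of the LEC groups. Tril, the third protein-coding gene before Prr15, averaged 9.62 in col LEC, 10.15 in pre-col LEC, 10.52 in cap LEC and 9.48 in BEC, the opposite order to Prr15 among the LEC groups. Chn2, the nearest protein-coding gene before Prr15, fell in both cap LEC and pre-col LEC against BEC (-0.75 and -0.65).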

How the data were processed

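Expression was measured on 12 Affymetrix whole-transcript arrays, 3 each of col LEC, pre-col LEC, cap LEC and BEC. The authors deposited log2 values, one per transcript cluster, made with RMA (per the submitters' processing notes), which corrects background, brings arrays to a common distribution and compresses differences of weak signals. The software, annotation and build behind them: not given in the sources used here. Gene names came from the platform annotation, updated through RefSeq gene IDs (GRCm38.p6, used for names, neighbours and start-site sequences). The brightest row stood for each gene. Group means were fitted with limma 3.58.1 in R 4.3.3 on all 12 arrays over 19675 genes, with Benjamini-Hochberg adjustment and a threshold of 0.05, two-sided. The fit was tested on simulated data. Prior and residual degrees of freedom were 3.63 and 8, and a typical gene (the median) varied within groups by an SD of 0.141. The number of arrays limits the precision. Because the labels do not tie replicates to animals, p-values measure the spread between these samples. The 4 genes and the lists were chosen with earlier results of these data known. Comparisons that use col LEC are descriptions with no test. Named genes were the 4 genes, the 5 most similar profiles of each (predicted genes, small RNAs, receptor families and immune segments left out), up to 4 called members per list or the 2 with the smallest p, neighbours, and sort genes. Alternatives were cyclic loess, no filter, array weights, only the groups compared, the replicate number as a block, the mean of a gene's rows, an intensity trend and leaving out each array. Plots used matplotlib 3.10.9.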

Additional observations from a re-analysis of the deposited data

How the results depend on the processing

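Each difference was refitted under 19 alternatives. The calls of Prr15, Ccdc3 and Parm1 in cap LEC minus BEC, and of Prr15 and Ccdc3 in pre-col LEC minus BEC, held under all 19, with the highest adjusted p at 0.0286 for Ccdc3 in cap LEC minus BEC without cap LEC replicate 2. In pre-col LEC minus cap LEC, the 0 genes called became 13 after cyclic loess (9 higher, 4 lower), 28 with array weights (13 higher, 15 lower), 3 with the replicate block (3 higher) and 1 with an intensity trend (higher), and 0 to 1 when 1 array was left out; the cause was not tested. Prr15 passed there with the replicate block (0.73, adjusted p = 0.0363). The labels do not say that replicate numbers pair the samples across groups. Deviations from the group means correlated at -0.093 to 0.21 between same-numbered arrays (median 0.091, 18 pairs) and at -0.14 to 0.18 between arrays of different number (median -0.035, 36 pairs), so the numbers were not used as a block in the reported values. Differences that were not called changed sign for Ahsg in cap LEC minus BEC (0.055 after cyclic loess, 0.072 with array weights, 0.14 without cap LEC replicate 3, 0.081 without BEC replicate 3, and -0.11 to 0.14 over all arrays left out in turn) and for Parm1 in pre-col LEC minus BEC (0.055 without BEC replicate 2, from -0.10 over all arrays left out in turn). Of the levels, Parm1 in cap LEC moved to 7.87 after cyclic loess. No member has a second row, so averaging rows left the levels as they were. Signals near the array median, such as Ahsg outside col LEC, limit what these arrays can show.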
